A study of Mus musculus with 10 samples.

Results

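Emp1, Emp2, Emp3 and Pmp22 encode the epithelial membrane proteins and peripheral myelin protein 22, small glycoproteins of the plasma membrane that are relatives of the claudins. The family was chosen by the p-value of Emp1, which was among the smallest between aldosterone-treated and untreated hearts, and the other members were added as its relatives. They are 4 of 20144 genes named on the array. All array probes whose accession belongs to 1 of the 4 genes were used, 6 of 39429, with 1 probe for Emp1 (A_55_P1954221), 2 for Emp2 (A_51_P437240 and A_55_P2092864), 1 for Emp3 (A_51_P446510) and 2 for Pmp22 (A_55_P2040170 and A_55_P2040168). Each of the 6 passed the filter on dim probes. In Emp2 and Pmp22 the first of each pair is the brighter, called probe 1, and it stands for its gene in the fits across all genes.

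The series compared ventricles of male mice that received aldosterone for 7 days with those of untreated male mice, 5 hearts each, each from its own animal. The labels of both groups carry the mark Ctrl, whose meaning they do not give, and here control means untreated. Strain, age, dose and route were not given in the sources used here. Heart RNA carried the dye Cy5 and was hybridised against a common Cy3 reference, RNA pooled from liver, brain, heart, kidney and spleen, so every value is a log2 ratio of heart over pool. Scanner files of 4 aldosterone and 5 control arrays were analysed, and aldosterone 4 entered through the authors' deposited value table alone. On the other 9 arrays that table matched the scanner's own log ratio within 0.001 at all 6 member probes, and at 82.7% to 86.6% of all probes.

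Proteins of this family cross the membrane 4 times and act in cell adhesion, in membrane microdomains and in the control of growth. PMP22 is best known from compact myelin of peripheral nerve, where a wrong gene dose causes neuropathy in humans, but fibroblasts and other cells make it too and it was first found as a growth arrest gene. EMP2 and PMP22 have been reported to bind integrins, the receptors that hold cells to the extracellular matrix, and EMP proteins have been reported to bind the ATP-gated channel P2X7. Aldosterone acts on heart cells through the mineralocorticoid receptor.

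On each array, Cy5 signal stood well above background at 64.3% to 70.9% of probes, and the median Cy5 signal was 118.5 to 146.25 units. Cardiomyocyte markers were all measured, 12 of 12, with a list mean of 1.47 to 1.67 on aldosterone arrays and 1.37 to 1.65 on control arrays. Control 1 carried a few spots with local backgrounds up to 11739.5 units, against at most 712 on the other arrays. The hearts also fell into 2 sets across the treatment groups, read from the first component of all other genes after group means were subtracted, which held 27.1% of that variance. Set 1 held aldosterone 1, 2 and 4 and controls 2 and 5, and set 2 held aldosterone 3 and 5 and controls 1, 3 and 4. No label gives these sets. Each array lay on 1 of 4 slides that held both groups, and aldosterone arrays lay at position 2 of a slide, controls at position 1 or 4, so position and treatment cannot be told apart.

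Emp1, which encodes epithelial membrane protein 1, was higher in every aldosterone heart than in any control heart. Its log2 ratio to the pool was 1.85, 1.42, 1.72 and 1.64 on aldosterone arrays 1, 2, 3 and 5, against 0.77, 0.99, 1.03, 0.99 and 1.08 on control arrays 1 to 5. The lowest aldosterone array, at 1.42, lay above the highest control array, at 1.08. The mean was 1.65 ± 0.18 with aldosterone (SD, n = 4) and 0.97 ± 0.12 in controls (SD, n = 5), a difference of 0.68 (SE 0.10) or 1.61-fold. Emp1 was chosen for this difference, so no test of it is given. Among the 22016 genes or transcripts kept, 0.781% had all aldosterone arrays above all controls, 0.404% had them all below, and 1.19% were apart in either direction. None of the other members was apart in either direction. By size its difference ranked 75 of 22016. When array spreads were made equal after loess, the difference was 0.43 (SE 0.23).

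The raw Cy5 signal of Emp1 was apart between the groups too. It is part of the ratio for which Emp1 was chosen, so it is described and not counted as support. It ran from 4614 to 6467.5 units on aldosterone arrays, with a median of 4749.75, and from 2408 to 4076 on controls, with a median of 3099.5. Its Cy3 signal, which comes from the same pooled RNA on every array, was 643.5 to 676 units on aldosterone arrays and 616.5 to 714 on controls. After quantile normalization the Emp1 Cy5 signal differed by 0.66 and the Cy3 signal by -0.03 on the log2 scale (exact two-sided permutation p = 0.317 for Cy3, adjusted p = 0.581 over the 6 probes, 126 splits). The difference in Emp1 was in the heart channel.

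**Figure D1:**
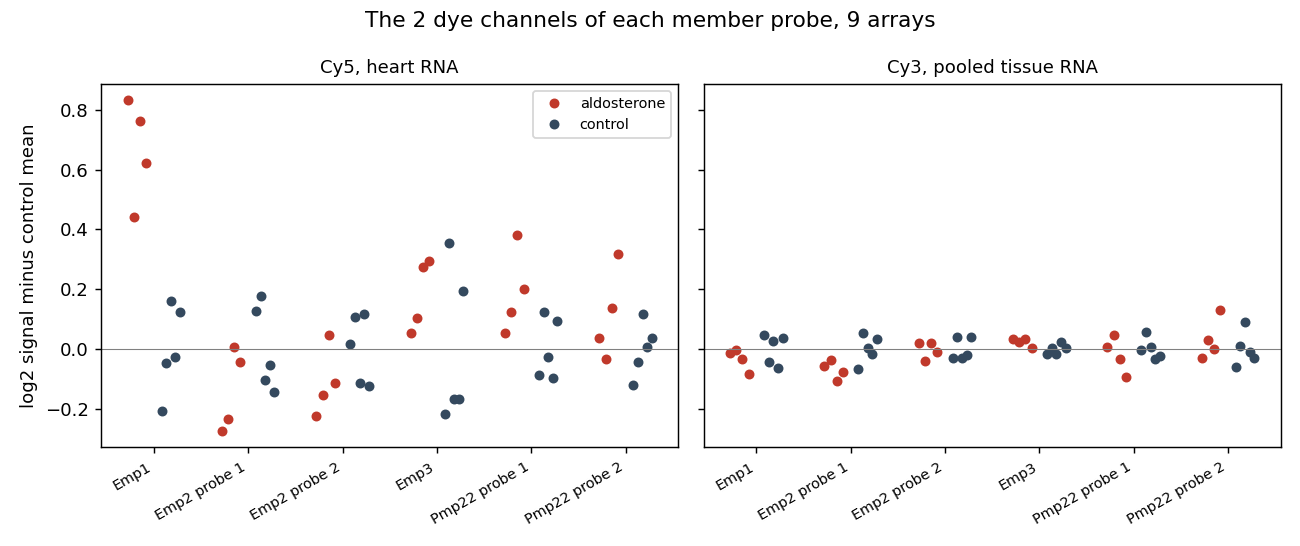
Log2 signal of each member probe on each of 9 arrays, quantile normalized per channel and shown minus the control mean, for Cy5 (heart RNA, left panel) and Cy3 (pooled tissue RNA, right panel), with 4 aldosterone arrays in red and 5 control arrays in dark blue. Emp1, chosen on the ratio of these channels, stands apart in Cy5, where it differed by 0.66, and not in Cy3, where it differed by -0.03.

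Aldosterone 4 was measured in the value table, which is among the values Emp1 was chosen on, so it is described and not counted as support. Its Emp1 log2 ratio was 1.71, above the control range of 1.01 to 1.37 and just below the 1.74 to 2.08 of the other aldosterone hearts. It lay 0.45 above the control mean, or 3.08 control SDs. Over all 10 hearts of that table Emp1 averaged 1.88 ± 0.17 with aldosterone and 1.25 ± 0.15 in controls (SD, n = 5 each), a difference of 0.63 (SE 0.10), or 1.55-fold. All aldosterone hearts were above all controls for 1.35% of genes there, and 1.91% were apart in either direction.

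Every aldosterone array lay above every control for Emp1, so any slide or set that holds both groups must give a positive difference. The values by slide and set therefore describe its size only. The difference was 0.97, 0.38, 0.73 and 0.56 within slides 1 to 4. In set 1 Emp1 averaged 1.63 on aldosterone arrays and 1.04 on control arrays, a difference of 0.59. In set 2 it averaged 1.68 with aldosterone and 0.93 in controls, a difference of 0.75. With set as a block it was 0.68 (SE 0.10), so the sets left the value where it was.

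**Figure D2:**
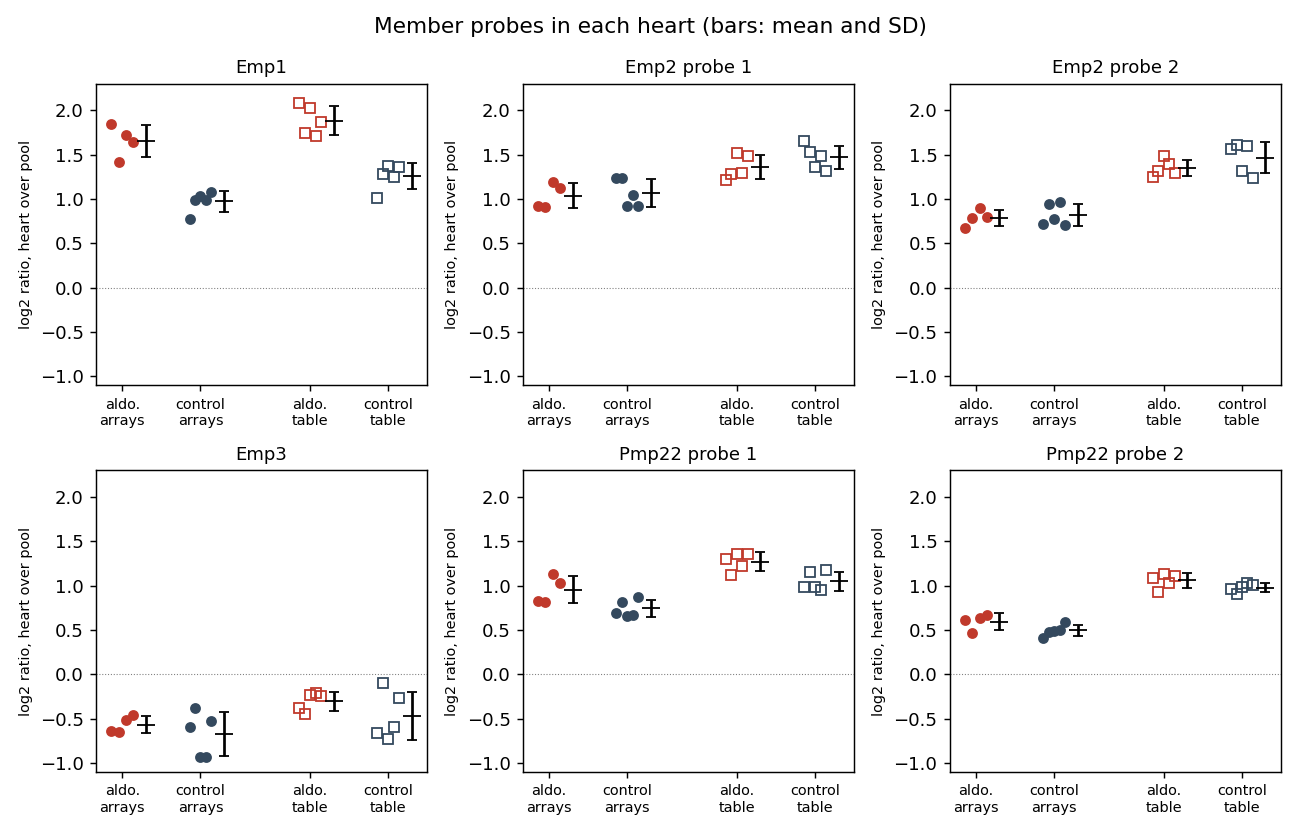
Log2 ratio of heart over pooled tissue RNA for the 6 member probes, as loess values of 9 arrays (filled circles) and in the value table of 10 hearts (open squares), aldosterone in red and control in dark blue, with the mean and SD as bars. Emp1 is the probe whose groups do not overlap in either source, with loess means of 1.65 with aldosterone and 0.97 in controls.

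Emp2, whose product has been reported to bind integrins and acts at epithelial surfaces, showed no difference that passed the test. Probe 1 gave log2 ratios of 0.92, 0.91, 1.19 and 1.12 on aldosterone arrays 1, 2, 3 and 5, against 1.24, 1.23, 0.92, 1.04 and 0.92 on control arrays 1 to 5. The groups overlapped over most of their range. It averaged 1.03 ± 0.14 with aldosterone (SD, n = 4) and 1.07 ± 0.16 in controls (SD, n = 5), and the difference was -0.04 (SE 0.10; limma adjusted p = 1.00 over all genes; exact two-sided permutation p = 0.722). The value was at or just above zero without aldosterone 1 (0.00169), aldosterone 2 (0.00435), control 1 (0.00499) or control 2 (0.00293). Probe 2, of the same transcript, gave -0.04 (SE 0.08), also near zero. With array spreads made equal after loess, probe 1 gave -0.38 (SE 0.44), and the Cy5 signal alone gave -0.14. Over the 10 hearts the 2 probes differed by -0.11 (SE 0.09) and -0.12 (SE 0.09), also short of the test (limma adjusted p = 0.812 for probe 1 as the gene's probe, and 0.799 for probe 2 in a fit of every probe).

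Emp3, the member found in blood cells and connective tissue, was the 1 member below the pool in ventricle. Its log2 ratio was -0.64, -0.65, -0.52 and -0.46 on aldosterone arrays 1, 2, 3 and 5, against -0.59, -0.38, -0.93, -0.93 and -0.53 on control arrays 1 to 5. The control values spread over a wider range than the aldosterone values and enclosed them. It averaged -0.57 ± 0.09 with aldosterone (SD, n = 4) and -0.67 ± 0.25 in controls (SD, n = 5), a difference of 0.11 (SE 0.12; limma adjusted p = 1.00; exact two-sided permutation p = 0.429). With aldosterone 4 included through the value table, Emp3 averaged -0.30 ± 0.11 in aldosterone hearts and -0.47 ± 0.27 in controls (SD, n = 5 each), a difference of 0.17 (SE 0.12; limma adjusted p = 0.802). Without control 3 the array value was 0.04, without control 2 it was 0.18, and with array spreads made equal it was 0.25 (SE 0.20).

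Pmp22, the myelin and growth arrest member, was higher on average with aldosterone at probe 1 but did not pass over all genes. Probe 1 gave 0.83, 0.82, 1.13 and 1.03 on aldosterone arrays 1, 2, 3 and 5, against 0.69, 0.82, 0.66, 0.67 and 0.87 on control arrays 1 to 5. Aldosterone 3 and 5 lay above every control, and aldosterone 1 and 2 lay within the control range. The mean was 0.95 ± 0.15 with aldosterone (SD, n = 4) and 0.74 ± 0.10 in controls (SD, n = 5), and the difference was 0.21 (SE 0.09), or 1.16-fold (limma unadjusted p = 0.0322, adjusted p = 1.00; exact two-sided permutation p = 0.0635, where the smallest this design allows is 0.00794). An unadjusted limma p under 0.05 was found for 3.15% of all genes.

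The second Pmp22 probe, for the same accession, gave a smaller difference. It read 0.61, 0.46, 0.64 and 0.67 on aldosterone arrays 1, 2, 3 and 5, against 0.41, 0.48, 0.49, 0.50 and 0.59 on control arrays 1 to 5, a difference of 0.10 (SE 0.07; limma adjusted p = 1.00 in a fit of every probe; exact two-sided permutation p = 0.0873). Over the 10 hearts probe 1 differed by 0.22 (SE 0.07; limma unadjusted p = 0.0121, adjusted p = 0.448) and probe 2 by 0.08 (SE 0.06; adjusted p = 0.790 in a fit of every probe), where 8.06% of genes had an unadjusted p under 0.05. The Pmp22 probes thus shared a direction and differed in size, and neither passed. With array spreads made equal after loess, probe 1 differed by 0.01 (SE 0.22).

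Across all genes, limma called 0 of 22016 on the 9 arrays, or 0%, at an adjusted p under 0.05, with 693 at an unadjusted p under 0.05. From the value table it called 37, or 0.168%. Of the 3 members that were not chosen for their p, 0 were called in either source. A lack of calls at these numbers of arrays does not show a lack of response.

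Pmp22 probe 1 and Emp3 gave unequal values in the 2 sets of hearts. At Pmp22 probe 1 the controls of set 2 read 0.69, 0.66 and 0.67, below the 0.82 and 0.87 of the set 1 controls. In set 2 Pmp22 probe 1 averaged 1.08 with aldosterone and 0.67 in controls, a difference of 0.41. In set 1 it averaged 0.83 with aldosterone and 0.84 in controls, a difference of -0.02. Pmp22 probe 2 differed less, by 0.19 in set 2 and 0.005 in set 1. Emp3 in set 2 averaged -0.49 with aldosterone and -0.82 in controls, a difference of 0.33, while in set 1 it averaged -0.64 with aldosterone and -0.46 in controls, a difference of -0.19. The value table, with aldosterone 4, gave differences of 0.39 in set 2 and 0.05 in set 1 for Pmp22 probe 1. It gave 0.12 in set 2 and 0.07 in set 1 for Pmp22 probe 2, and 0.42 and -0.16 for Emp3. These are 2 or 3 hearts per group, and whether the sets differ in response was not tested. At Emp2 probe 1 the arrays gave 0.09 in set 2 and -0.16 in set 1, and the value table gave 0.00187 in set 2 and -0.17 in set 1. Within slides 1 to 4 the differences were 0.08, 0.16, 0.46 and 0.17 for Pmp22 probe 1, which was higher with aldosterone on each. For Pmp22 probe 2 they were 0.17, -0.03, 0.15 and 0.08. They were -0.16, 0.28, 0.41 and 0.08 for Emp3 and -0.32, -0.01, 0.15 and 0.19 for Emp2 probe 1, which changed sign between slides. In the Cy3 channel Emp2 probe 1 differed by -0.07 (exact two-sided permutation p = 0.0397, adjusted p = 0.143 over the 6 probes) and Emp3 by 0.02 (exact p = 0.0476, adjusted p = 0.143), and neither passed after adjustment.

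**Figure D3:**
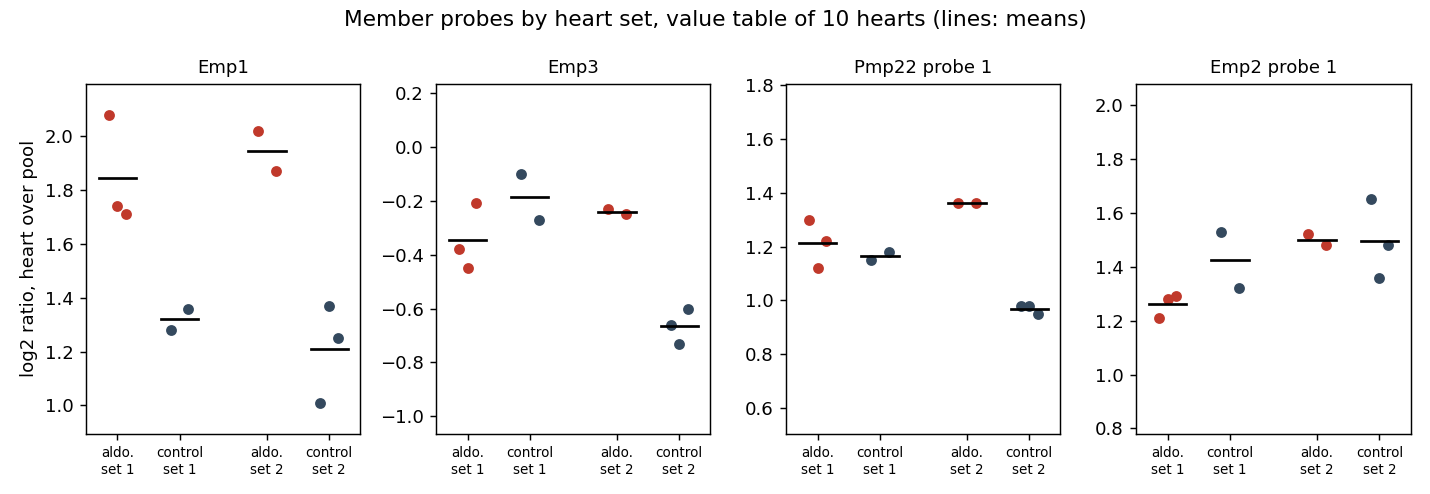
Log2 ratio of heart over pool in the value table for Emp1, Emp3, Pmp22 probe 1 and Emp2 probe 1, split by the 2 sets of hearts, aldosterone in red and control in dark blue, 1 point per heart and lines at the means; each panel spans the same height. Emp1 differs by 0.52 in set 1 and 0.74 in set 2, and Pmp22 probe 1 differs by 0.05 in set 1 and 0.39 in set 2.

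Marker lists of the cell types of the ventricle were read on the same arrays, since in bulk tissue fewer cells of a type and less RNA per cell cannot be told apart. Fibroblast markers, 15 of 15 measured, had a list mean of 0.41 to 0.91 on aldosterone arrays and 0.17 to 0.68 on controls, and 14 were higher on average, 8 of them at an unadjusted limma p under 0.05. Over all genes 46.9% were higher on average and 2.02% higher at that p. Among controls the list was 0.68 and 0.41 on arrays 2 and 5 and 0.17 to 0.27 on arrays 1, 3 and 4. Pmp22 probe 1, Emp3 and the smooth muscle and macrophage lists split alike, and the other cell type lists did not. Pmp22 probe 2 did not either, at 0.48 and 0.59 on control arrays 2 and 5 and 0.41, 0.49 and 0.50 on 1, 3 and 4. Controls 2 and 5 read 1.16 and 1.19 for smooth muscle, against 0.74 to 0.97 in the rest. For macrophages they read -0.23 and -0.60, against -0.98 to -0.63. On aldosterone arrays Pmp22 probe 1 was lower in set 1, at 0.83 and 0.82, than in set 2, at 1.13 and 1.03. The fibroblast list read 0.91 and 0.41 in set 1 and 0.75 and 0.78 in set 2. The part of fibroblast markers in the member values was not tested. Endothelial markers, 12 of 12 measured, had a list mean of 0.93 to 1.00 with aldosterone and 0.76 to 1.01 in controls. Smooth muscle and pericyte markers, 11 of 11 measured, were at 0.97 to 1.18 with aldosterone and 0.74 to 1.19 in controls, and macrophage markers, 10 of 11 measured, at -0.62 to -0.40 with aldosterone and -0.98 to -0.23 in controls. Schwann cell and myelin genes, 13 of 15 measured, lay well below the brain-containing pool, at -2.03 to -1.83 with aldosterone and -2.12 to -1.38 in controls, where Pmp22 lay above it. Lymphocyte markers, 11 of 12 measured, lay at -2.65 to -2.30 with aldosterone and -2.67 to -1.39 in controls. Epithelial and mesothelial markers, 6 of 11 measured, lay at -2.06 to -1.84 with aldosterone and -2.10 to -1.07 in controls. The highest control value of the Schwann, lymphocyte and epithelial lists was control 1 each time, the array with stray backgrounds, and the next highest controls were at -1.93, -2.40 and -2.03. The epithelial genes Epcam and Cdh1 were not well above background on enough arrays to be measured. On average 8 of 12 endothelial, 8 of 11 smooth muscle and pericyte, 8 of 10 macrophage and 5 of 12 cardiomyocyte genes were higher. The counts were 5 of 13 for Schwann cell, 0 of 11 for lymphocyte and 1 of 6 for epithelial genes. Over the 10 hearts 8 of 13 Schwann cell, 3 of 11 lymphocyte and 2 of 6 epithelial genes were higher. So were 6 of 12 endothelial, 8 of 11 smooth muscle and pericyte, 9 of 10 macrophage and 6 of 12 cardiomyocyte genes. At an unadjusted limma p under 0.05 on the 9 arrays, 1 of these endothelial genes was higher, and 0 of the rest were higher or lower. Over the 10 hearts 1 endothelial, 1 Schwann cell and 1 macrophage gene were higher at that p, and 1 lymphocyte gene was lower. Of all genes, 8.06% had such a p there in either direction.

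On the 9 arrays no gene at all passed the test, and so none of the wider family of claudins and other claudin-like membrane proteins did. Of 43 genes listed, 42 were on the array and 22 passed the filter on dim probes. Limma called 0 of the 22, where it called 0% of all genes. At an unadjusted p under 0.05 in either direction there were 0 of the 22, where 3.15% of all genes were. A count of 0 among 22 is near that share. On average 4 were higher and 18 lower, where 46.9% of all genes were higher, and the median difference was -0.07, against -0.01 over all genes. Without control 1 the array median was 0.02, so its sign rests on that array. Over the 10 hearts 7 of the 22 were higher, where 49.9% of all genes were, and the median was -0.03. Among those above zero, the 3 with the smallest p had SEs near or above their differences. Cldnd1, a claudin domain gene, differed by 0.13 (SE 0.10), Perp, a p53 target of desmosomes, by 0.14 (SE 0.18), and Gsg1l, an AMPA receptor accessory protein, by 0.13 (SE 0.13). On the lower side Nkg7, of cytotoxic lymphocyte granules, differed by -0.14 (SE 0.08), Cldn9 by -0.09 (SE 0.07) and Cldn12 by -0.10 (SE 0.09). Cldn5, the claudin of endothelial tight junctions, differed by -0.08 (SE 0.12) and the junction protein gene Tmem47 by -0.03 (SE 0.08).

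Among 18 genes of proteins reported to bind or act with EMPs and PMP22, 16 were measured, all but Src and Ocln. None was called over all genes, where limma called 0% of all genes. At an unadjusted limma p under 0.05, 2 of the 16 were higher and 0 lower. By that rule 2.02% of all genes were higher and 1.13% lower. On average 12 were higher and 4 lower, where 46.9% of all genes were higher. The list median was 0.10, against -0.01 over all genes. Over the 10 hearts, 2 of the 16 had an unadjusted p under 0.05, both higher, where 4.87% of all genes were. The pair with the smallest p on the higher side were Itga6, the integrin alpha 6 subunit that binds laminin, and Cav2, a caveolin of membrane caveolae.

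Itga6 differed by 0.33 (SE 0.09; limma unadjusted p = 0.00311, adjusted p = 1.00). Its log2 ratio was 0.02, -0.26, -0.02 and -0.09 on aldosterone arrays 1, 2, 3 and 5, against -0.52, -0.41, -0.34, -0.57 and -0.26 on control arrays 1 to 5. The lowest aldosterone array lay above the highest control array by less than the rounding, both at -0.26. All aldosterone arrays were thus above all controls, as they were for 0.781% of all genes. Over the 10 hearts it differed by 0.29 (SE 0.09; limma adjusted p = 0.379). Cav2 read 1.27, 1.36, 1.00 and 0.99 on aldosterone arrays 1, 2, 3 and 5 and 0.56, 1.03, 0.93, 0.90 and 1.02 on control arrays 1 to 5, a difference of 0.27 (SE 0.12; limma unadjusted p = 0.0465, adjusted p = 1.00). Control 1 was its lowest array, and the groups overlapped.

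The other partner genes gave smaller values. The focal adhesion kinase gene Ptk2 differed by 0.12 (SE 0.07), Itgb1, the integrin beta 1 subunit, by 0.11 (SE 0.08) and Cav1 by 0.09 (SE 0.14). The chaperone gene Canx, whose product calnexin holds misfolded PMP22 in the endoplasmic reticulum, differed by -0.10 (SE 0.08), the tight junction scaffold gene Tjp1 by -0.02 (SE 0.07) and Itgb4, the partner subunit of integrin alpha 6 in hemidesmosomes, by -0.13 (SE 0.20). The limma adjusted p of each of these was 1.00.

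**Figure D4:**
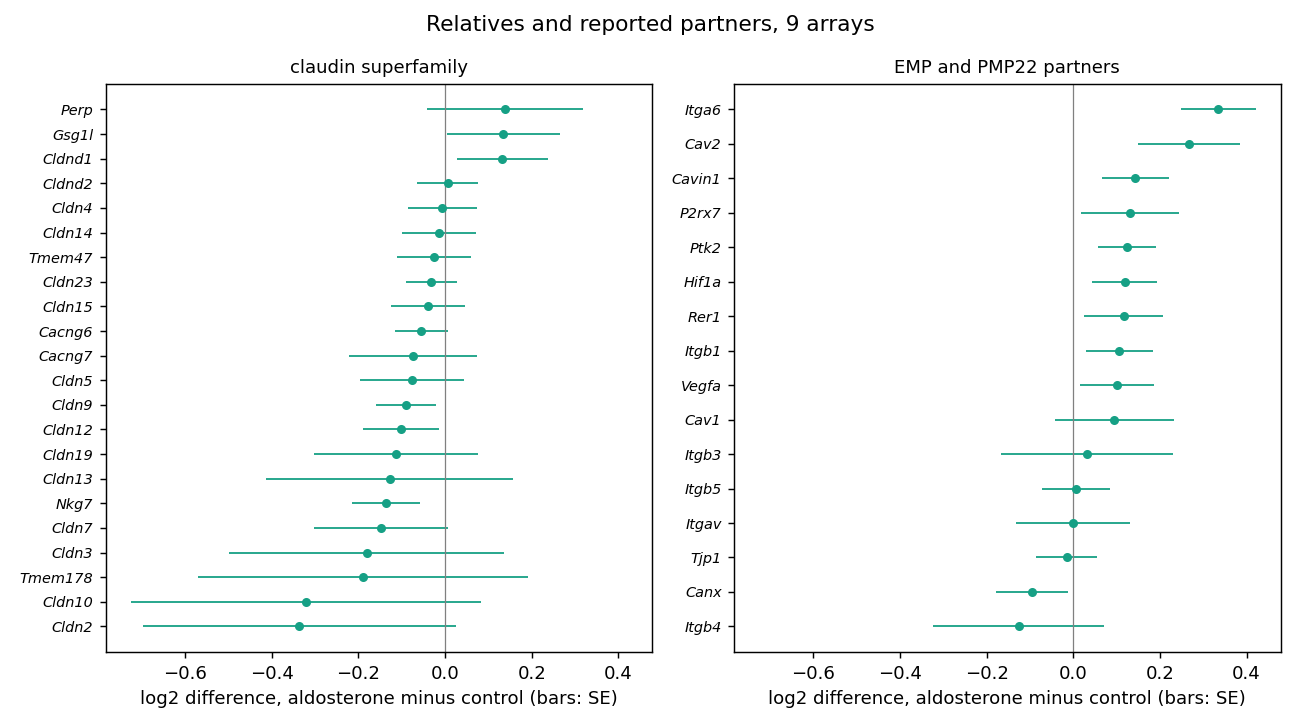
Log2 difference, aldosterone minus control, with its SE on 9 arrays, for 22 measured claudin superfamily genes (left) and 16 measured partner genes (right), sorted by size. Itga6 has the highest value among the partners, 0.33, while the superfamily genes run from -0.34 for Cldn2 to 0.14 for Perp.

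Genes whose pattern over hearts was most like that of Emp1 were ranked among 15229 named genes by Pearson correlation over the 10 hearts of the value table, as a description. The highest values were 0.982 for Cenpe, a mitotic kinesin, 0.972 for Lhfpl2, another membrane protein that crosses the membrane 4 times, 0.960 for the spindle checkpoint kinase gene Bub1, 0.959 for the exonuclease gene Exo1, 0.958 for the mitotic kinase gene Cdk1 and 0.955 for Col4a1, which encodes a collagen chain of the basement membrane. These correlations carry the treatment difference for which Emp1 was chosen, and all points share 1 reference RNA. On the loess values of 9 arrays they were 0.443, 0.609, 0.211, 0.075, 0.381 and 0.949 in the same order. With the stray local backgrounds of control 1 and the other arrays replaced they were 0.972, 0.901, 0.879, 0.865, 0.936 and 0.951, so the values of all but Col4a1 moved with how background was handled.

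After group means were subtracted, the highest values were 0.964 for Itga6, 0.919 for Rcn1, a calcium-binding protein of the endoplasmic reticulum, 0.912 for the ETS factor gene Etv4, 0.907 for Cenpe, 0.901 for the orphan receptor gene Mrgprf and 0.901 for Cdc42ep5, an effector of the GTPase Cdc42. On 9 loess arrays they were 0.808, 0.843, 0.421, -0.177, 0.827 and 0.259 in the same order. With stray backgrounds replaced they were 0.883, 0.882, 0.865, 0.879, 0.801 and 0.855, so the low values of Cenpe, Etv4 and Cdc42ep5 moved with how background was handled. Aldosterone 1 and 3 were the 2 highest hearts for Emp1, at 2.08 and 2.02, and for Itga6, at 0.15 and 0.08. Of the relatives, Pmp22 correlated with Emp1 at 0.841 (rank 183 of 15229) and at 0.551 after group means were subtracted, Emp3 at 0.447 and 0.195, and Emp2 at -0.516 and -0.344. On the 9 loess arrays these were 0.727 and 0.302 for Pmp22, 0.255 and -0.043 for Emp3, and -0.224 and -0.267 for Emp2. By Spearman's rank over the 10 hearts Pmp22 was at 0.758 and 0.333.

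**Figure D5:**
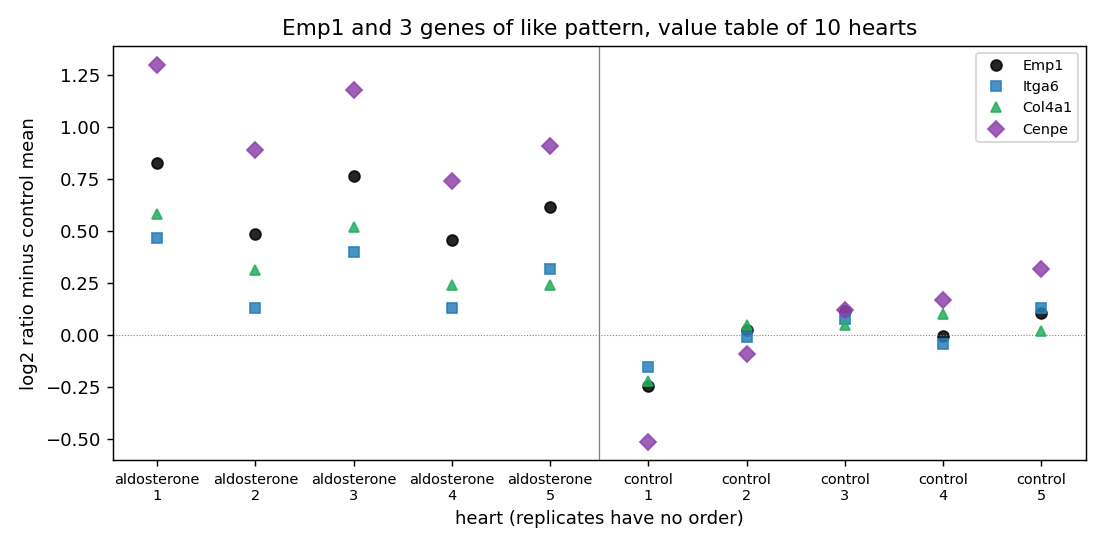
Log2 ratio minus the control mean in each of 10 hearts of the value table, aldosterone 1 to 5 left of control 1 to 5, for Emp1 (black circles), Itga6 (blue squares), Col4a1 (green triangles) and Cenpe (purple diamonds). Aldosterone 1 and 3 are the highest hearts for each of the 4 genes, and control 1 is the lowest.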

How the data were processed

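The deposited files of 9 arrays give spot intensity in both dyes, extracted by Agilent's software (version 10.7.3.1, per the submitters' processing notes). The authors' scanner output also holds a log10 ratio of heart dye over reference dye. The authors' deposited value table holds log2 ratios of all 10 hearts. On the 9 arrays with scanner files it matched the scanner's log ratios at every member probe within 0.001. Its column medians were 0.04, 0.08, 0.11, -0.01 and 0.04 for aldosterone 1 to 5 and 0.05, 0.06, 0.12, 0.02 and 0.02 for controls 1 to 5. The number of arrays and the processing both bear on the precision.

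Median signals were corrected with normexp (offset 50) and normalized by loess within arrays (R 4.3.3, limma 3.58.1), leaving out control spots and 1667 outlier spots. Unversioned accessions were matched to RefSeq genes of GRCm38.p6, which named 26581 of 39429 probes. Probes well above background in Cy5 on at least 4 arrays were kept (26877), with the brightest probe per gene. Groups were compared by limma, two-sided, with Benjamini-Hochberg adjustment at 0.05, and the fit was tested on simulated data. SEs are limma's moderated SEs. Fits had no block. Alternatives changed the background, normalization, filter, probe rule, slide, set or replicate block, and left out each array. A scanner file of aldosterone 4 was not analysed here.

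Members, gene lists and tests were chosen with earlier results of these data known. Named genes were the members, from the 2 gene lists those called, the 3 of smallest p per direction and 6 fixed genes, and the 6 most like Emp1 by each measure. Probe and protein sequences were not used here.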

Additional observations from a re-analysis of the deposited data

Results flagged for a closer look

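Emp3 differed in opposite directions in the 2 sets of hearts, which no label gives. On the 9 arrays it was lower with aldosterone by -0.19 in set 1, where both aldosterone arrays lay below both controls, and higher by 0.33 in set 2, where both aldosterone arrays lay above the 3 controls. The difference between the sets was not tested. Over the 10 hearts the groups of set 1 overlapped. No member value stood apart from its group in either source by Dixon's test.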

How the results depend on the processing

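Under 16 alternatives on the 9 arrays the Emp1 difference ran from 0.43 to 0.74. It was lowest with scale normalization after loess (0.43, SE 0.23), and the cause was not tested. Changes of filter, probe rule or variance estimate could not move the difference of a gene with 1 probe. Aquantile normalization after loess could not either, and under all of these it was 0.68. Leaving out 1 array at a time gave 0.62 to 0.76 for Emp1, -0.088 to 0.00499 for Emp2, 0.04 to 0.18 for Emp3 and 0.15 to 0.26 for Pmp22. Over 17 other alternatives Emp2 ran from -0.38 to -0.02, over 16 Emp3 from 0.04 to 0.25 and over 17 Pmp22 from 0.01 to 0.25. Emp2 turned to 0.00169 without aldosterone 1, 0.00435 without aldosterone 2, 0.00499 without control 1 and 0.00293 without control 2. In the value table, leaving out 1 heart at a time gave 0.57 to 0.67 for Emp1 and -0.15 to -0.07 for Emp2. It gave 0.10 to 0.26 for Emp3 and 0.20 to 0.26 for Pmp22. Over the other alternatives there, Emp1 stayed at 0.63 and Emp2 ran from -0.12 to -0.08. Emp3 ran from 0.13 to 0.17 and Pmp22 from 0.08, at probe 2, to 0.23. With 1 array left out, the superfamily median ran from -0.11 to 0.02 and the partner median from 0.07 to 0.12. No alternative gave Emp2, Emp3 or Pmp22 a call, with adjusted p of at least 0.551 on the arrays and 0.395 in the value table outside the runs that left out an array.

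Same-numbered hearts did not deviate together (correlations -0.00396, 0.16, 0.28, -0.13 and -0.22 for numbers 1 to 5), and 2 of 10 hearts correlated best with their own number. With a replicate block the differences were 0.69, -0.04, 0.04 and 0.19 for Emp1, Emp2, Emp3 and Pmp22 on the arrays, and 0.63, -0.11, 0.17 and 0.22 in the value table. Calls over all genes were 0 on the arrays, but 11 with Agilent processed signals and 1 each without aldosterone 1 or control 3. At an unadjusted p under 0.05 there were 693 genes, 175 with median centring, 1365 with stray backgrounds replaced and 1632 with Agilent processed signals. In the value table calls were 37, but 0 with the replicate block, 12 with set as a block, 8 with no filter and 2 to 51 with 1 heart left out.

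Of the 6 genes most like Emp1, 1 was shared with the loess arrays, 1 with Spearman's rank and 2 with stray backgrounds replaced, which was added after seeing the data. After group means were subtracted these counts were 0, 1 and 0, and Cenpe turned to -0.177 on the loess arrays, against 0.879 there with stray backgrounds replaced.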
